A study of Mus musculus with 4 samples.

Results

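The cells described here are the Kit-positive cells of a pair of wild-type (WT) mouse bone marrow libraries, 1 from untreated mice and 1 from mice given imatinib. The cells were selected on measured values of their own: a cell was taken when its column held at least 1000 unique molecular identifiers (UMIs, the tags that mark single captured RNA molecules), at most 20% of them from mitochondrially encoded genes, and at least 1 UMI of Kit. Each such cell was then thinned at random to 1000 UMIs, so that both libraries were compared at equal depth per cell. The rule gave 1048 untreated and 732 imatinib cells, 1780 of the 8658 cells in both WT libraries and of the 18822 in the 4 libraries of the series. Both groups were C57BL/6 WT animals whose marrow had been sorted for lineage-negative, Sca1-positive, cKit-positive (LSK) cells, and polyA RNA was profiled by inDrop, a droplet method. The treated mice received imatinib by gavage, 400 mg/kg every other day, over 30 days according to one label and 4 weeks according to another, and the control mice are labelled untreated, with no mention of a vehicle. There was 1 library a group, and none of the sources used here gives the number of mice behind each. No test between the groups was therefore possible, folds have no replicate check, and 95% intervals below are exact conditional binomial (Clopper-Pearson) intervals that cover counting error only. Mouse, library, handling and drug cannot be told apart.

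The LSK gate holds blood stem cells and their earliest multipotent progeny. Kit is the receptor tyrosine kinase for stem cell factor and marks progenitors, and imatinib inhibits the kinases ABL, KIT and the PDGF receptors, which makes it the standard drug for BCR-ABL-driven chronic myeloid leukaemia. In WT marrow no BCR-ABL is present. Granulocyte development runs from progenitors that fill primary (azurophil) granules with myeloperoxidase and serine proteases to later cells that make secondary granule proteins, while immediate early genes are transcribed within minutes of growth factor and stress signals.

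The WT files held 3033 untreated and 5625 imatinib cells. All untreated cells reached 1000 UMIs, while 2756 imatinib cells did not. Among the cells of 1000 or more UMIs, none exceeded 20% mitochondrial UMIs. Of the cells deep enough, 34.6% (32.9 to 36.3%) of 3033 untreated and 25.5% (23.9 to 27.2%) of 2869 imatinib cells had a Kit UMI; since deeper cells are more likely to show one, these shares are not comparable. Before thinning, the Kit-positive cells had a median of 4577.5 UMIs (1007 to 20265) in the untreated and 2720.0 (1000 to 14736) in the imatinib library. Near the limits, 7 untreated and 33 imatinib cells had 1000 to under 1100 UMIs, 25 imatinib cells with Kit fell short of 1000 UMIs by at most 100, and Kit rested on a single UMI in 606 untreated and 412 imatinib cells. After thinning, the median cell showed 665 genes untreated (quartiles 644 and 685) and 644 with imatinib (618.75 and 666). The files share 1135 cell names, more than the 80 to 340 shared by any other pair of libraries. Profiles of same-named cells had a median correlation of 0.312 across genes, against 0.313 for differently named ones, and the counts of changed genes without the shared names are given with the alternatives.

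At the level of all genes, 3925 genes were measured, that is, reached 50 CPM (UMIs per 1000000 UMIs summed over the cells) and 50 UMIs in at least 1 library. Of these, the imatinib cells were above the untreated cells by 2-fold or more for 302 (7.69%) and below them by as much for 366 (9.32%), 17.0% in all. These shares are the background for every list below. The fold was 4 or more for 86 higher and 89 lower genes, and the interval lay wholly beyond 2-fold for 316 of the 668. Over the measured genes the median log2 ratio of imatinib over untreated was -0.14. Neutrophil granule genes occupied the upper end, and immediate early, stem cell, lymphoid and erythroid genes the lower end.

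**Figure D1:**
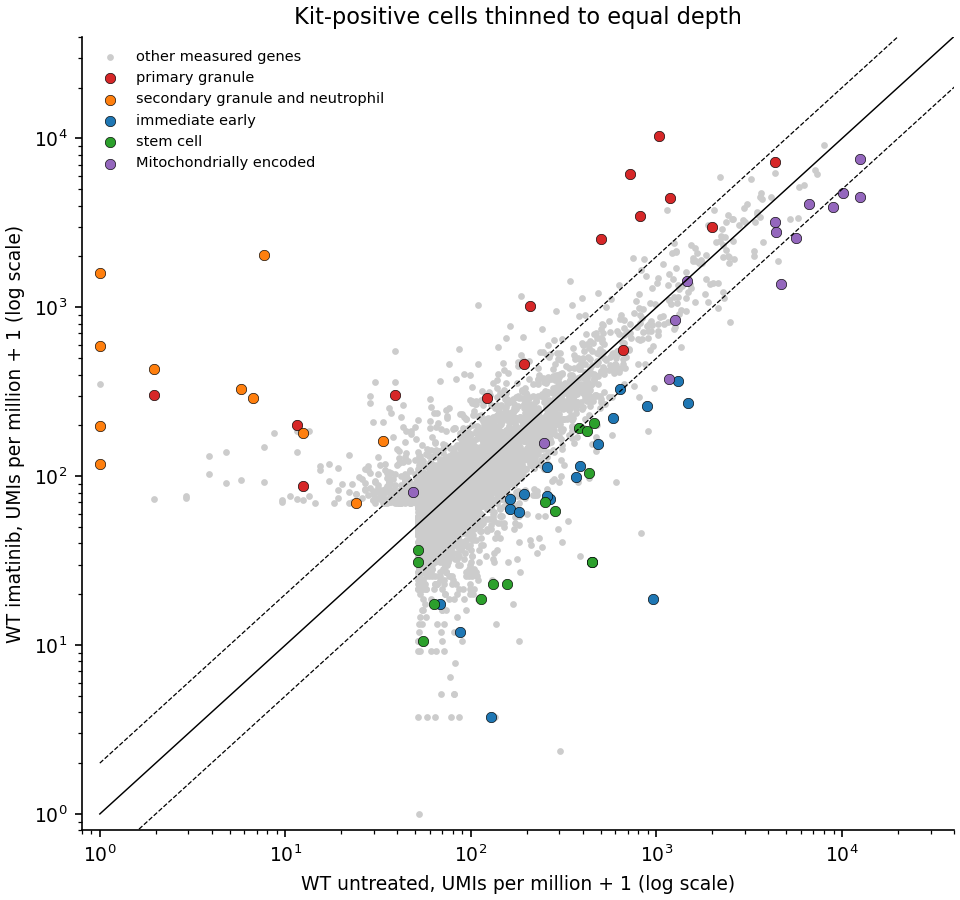
Summed CPM plus 1 of each measured gene in untreated (x axis) and imatinib (y axis) Kit-positive cells, both on log scales, with lines at equality (solid) and 2-fold (dashed) and members of 5 lists coloured. Of the granule genes, all but 3 primary granule genes (Plac8, Calr and Igfbp4) lie above the upper dashed line, with 5 secondary granule points on or near the left edge, and immediate early and stem cell genes lie mostly below the lower one.

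Most primary granule genes were higher with imatinib. All 15 list members were measured, 12 were at least 2-fold higher and 0 lower, and the median log2 ratio was 2.29. Elane (chr10:79886247-79888215 in GRCm38, GENCODE vM21, as for all gene positions here), which encodes neutrophil elastase, stood at 1029.6 CPM in untreated and 10287 in imatinib cells, 9.99-fold higher (9.37 to 10.7). Mpo (chr11:87793581-87804413), the gene of myeloperoxidase, stood at 716 and 6150.3 CPM, 8.59-fold higher (7.95 to 9.30). The intervals of Elane and Mpo did not overlap, and Ctsg and Prtn3 were apart by smaller factors. Ctsg (cathepsin G) was at 811 and 3485, 4.30-fold higher (3.97 to 4.65), and Prtn3 (proteinase 3) at 1185 and 4415, 3.73-fold higher (3.49 to 3.98). Together the list held 11823 CPM in untreated and 40367 in imatinib cells.

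The stretches before the annotated starts of Elane, Mpo and Ctsg are shown because these enzyme genes are among the 8 with the largest difference in CPM; capitals mark GAGGAA, the core bound by the myeloid factor PU.1 (and, in Ctsg, the reversed TATAAA). They come from RefSeq promoter entries on GRCm38.p6 and are cut where a GENCODE vM21 exon begins.
Elane (chr10:79886062-79886246, plus strand): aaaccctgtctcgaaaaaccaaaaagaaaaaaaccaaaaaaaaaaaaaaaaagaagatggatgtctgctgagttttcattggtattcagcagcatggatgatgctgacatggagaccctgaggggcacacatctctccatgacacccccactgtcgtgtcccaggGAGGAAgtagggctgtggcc
Mpo (chr11:87793534-87793580, plus strand): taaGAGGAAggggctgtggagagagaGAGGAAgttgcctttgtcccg
Ctsg (chr14:56102575-56102824, minus strand): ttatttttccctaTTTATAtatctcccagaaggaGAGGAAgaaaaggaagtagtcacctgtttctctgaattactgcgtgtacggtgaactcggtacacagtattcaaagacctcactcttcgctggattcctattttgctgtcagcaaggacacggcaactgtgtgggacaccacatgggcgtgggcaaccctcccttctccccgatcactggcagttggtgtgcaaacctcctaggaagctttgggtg
GAGGAA, searched on both strands in the 250 bases before the start, was found for 6 of the 13 primary granule genes with an entry (46.2%), against 23.1% of 27025 promoters. The C/EBP motif TTNNGNAA was found for 4 of 13 (30.8%) against 36.9%. These matches describe letters only.

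The other primary granule members ranged widely. Fcnb, which encodes ficolin B, had 1 UMI in all untreated cells and 221 in imatinib cells, a ratio of 316 (56.2 to 12553) that rests on a single UMI. Hp (haptoglobin) was at 10.5 and 201 CPM, 19.1-fold higher (10.4 to 39.2), and Gstm1, a glutathione transferase, at 502 and 2546, 5.07-fold higher (4.60 to 5.60). Within 2-fold were Plac8, at 4358 and 7264 CPM, Calr (calreticulin), at 1984 and 3005, and Igfbp4, the only member with a lower value, at 656 and 557. In single cells the list took a median of 8 of 1000 UMIs untreated (quartiles 4 and 14) and 42 with imatinib (29 and 53), so the upper quartile of the untreated cells lay below the lower quartile of the treated ones.

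Secondary granule and neutrophil genes were close to absent from the untreated cells. The 11 measured members of 15 were all at least 2-fold higher with imatinib, with a median log2 ratio of 5.75 in which 5 genes are lower bounds, and the list held 108 CPM untreated and 6102 with imatinib. S100a8 (chr3:90668978-90670035), a subunit of the calcium-binding protein calprotectin, had 7 UMIs in untreated and 1484 in imatinib cells, 304-fold higher (147 to 756). Its neighbour and partner S100a9 (chr3:90692632-90695721) had 0 and 1171 UMIs; set to a floor of 3 UMIs over the library, it was at least 559-fold higher. Camp, the cathelicidin precursor, had 0 and 431 UMIs, at least 206-fold, and Ltf (lactoferrin) 0 and 86, at least 41.0-fold. Most of these UMIs sat in few cells, while low counts were seen in more, S100a8 in 220 and S100a9 in 100 imatinib cells. Without Lyz2, which other myeloid cells share, 5 or more of 1000 UMIs from the list were seen in 0 of 1048 untreated cells, which allows a share of up to 0.286%, and in 101 of 732 imatinib cells (13.8%). The top 37 imatinib cells held 75.6% of the list's UMIs, while 500 of 732 had none of S100a8 and S100a9. No UMI of the list without Lyz2 was seen in 335 of 732 imatinib and 979 of 1048 untreated cells. Without 23 untreated and 103 imatinib cells rich in neutrophil, T, B, plasma cell or haemoglobin genes, the list's median log2 ratio was 3.72, that of S100a8 was 5.36 and the bound for S100a9 was 3.64. Cells were left out partly by these same neutrophil genes, so lower values were built in.

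**Figure D2:**
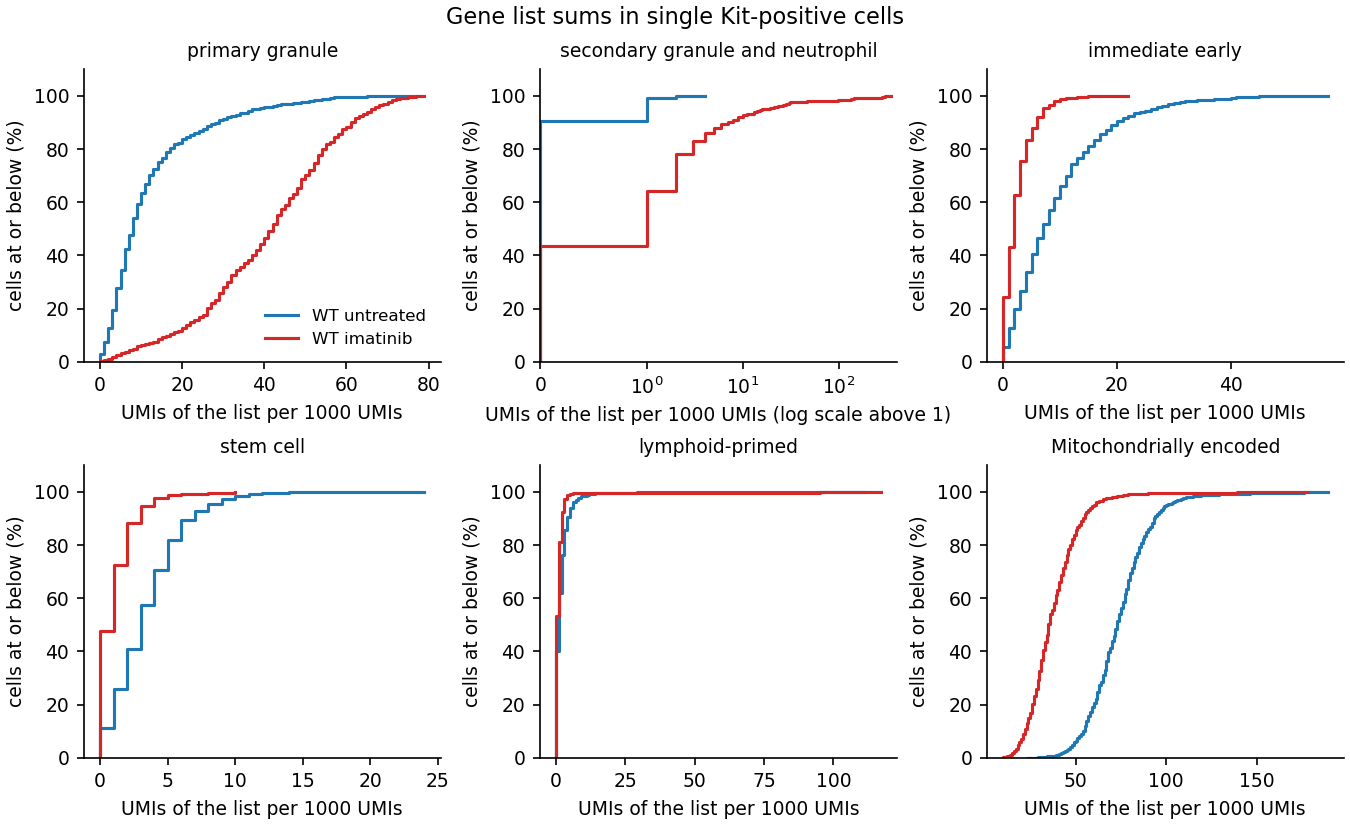
Cumulative share of cells (y axis, percent) at or below each number of UMIs of a list per 1000 UMIs (x axis, log above 1 in the neutrophil panel) for untreated (blue) and imatinib (red) Kit-positive cells. The primary granule curves are apart at medians of 8 and 42, the immediate early ones at 7 and 2 and the mitochondrially encoded ones at 73 and 35, whereas the neutrophil curve of imatinib has a long tail.

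The regulators and receptors of granulocyte and monocyte development were higher as a group: 7 of 9 measured members at least 2-fold higher, 0 lower, median log2 ratio 1.39. Gfi1, a repressor needed for neutrophil differentiation, was at 60.1 and 257 CPM, 4.27-fold higher (3.20 to 5.78). Cebpe, the C/EBP factor of secondary granule genes, had 2 UMIs untreated and 54 with imatinib, a ratio of 38.7 (10.2 to 327). In cells of 1000 to 2000 UMIs alone both fell short of 2-fold, at log2 ratios of 0.78 and 0.81. Spi1, which encodes PU.1, was 2.53-fold higher (2.01 to 3.21) and Cebpa 2.73-fold (1.94 to 3.88). Among the surface genes of this list the largest folds were those of Ly6c2, at 38.2 and 548 CPM (14.4-fold, 10.4 to 20.4), and Fcgr3, an Fc receptor, at 29.6 and 358 (12.1-fold, 8.32 to 18.2). Irf8, the factor of the monocyte and dendritic branch, did not differ by 2-fold, at 144 and 122 CPM, and neither did any of the 4 measured monocyte genes, with a list median of 0.05.

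Mast cell and basophil genes were also higher, 3 of 4 measured, with a median log2 ratio of 2.42. Prss34, a basophil protease, had 0 and 255 UMIs, at least 122-fold higher, and Hdc, which makes histamine, 30 and 153, 7.30-fold higher (4.91 to 11.2). Cpa3, the carboxypeptidase of mast cells, was within 2-fold at 142 and 184 CPM. Prss34 was seen in 19 imatinib cells, and 21 imatinib against 6 untreated cells had 5 or more UMIs of the list. Mcpt8, at 8.59 and 71.0 CPM, dropped to a log2 ratio of 0.55 without such cells. Mcpt8 belongs to the list by which those cells were left out, so a drop was built in.

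Immediate early genes were lower together. Of 20 measured members 0 were higher and 19 were at least 2-fold lower with imatinib, the median log2 ratio was -1.77, and the list held 9323 CPM in untreated and 2451 in imatinib cells. Rgs1 (chr1:144242296-144249242), a brake on G protein signalling, had 1000 UMIs in untreated and 13 in imatinib cells, 53.7-fold lower (31.3 to 101). Nr4a1, an orphan nuclear receptor, had 133 and 2 UMIs, a ratio of 46.4 to 1 (12.6 to 388). Egr1, a zinc finger factor, was at 449 and 30.1 CPM, 14.95-fold lower (9.76 to 24.1). The AP-1 genes differed less: Fos stood at 891 and 258 CPM, 3.45-fold lower (2.95 to 4.06), and Jun at 1298 and 363, 3.57-fold lower (3.13 to 4.09). Zfp36 (chr7:28376784-28380253), whose product speeds the decay of inflammatory mRNAs, was at 1472 and 270.5 CPM, 5.44-fold lower (4.69 to 6.34). Myc alone among the measured members was within 2-fold, at 633 and 328 CPM. The median cell had 7 of 1000 UMIs from the list untreated (quartiles 3 and 13) and 2 with imatinib (1 and 3).

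The promoter of Btg2, an antiproliferative member of the list at 162 and 62.8 CPM (2.58-fold lower, 1.85 to 3.66), is shown as one that holds a full cAMP response element, TGACGTCA, in capitals 166 to 159 bases before the start; the other capitals are the reversed PU.1 letters.
Btg2 (chr1:134079156-134079405, minus strand, GRCm38.p6): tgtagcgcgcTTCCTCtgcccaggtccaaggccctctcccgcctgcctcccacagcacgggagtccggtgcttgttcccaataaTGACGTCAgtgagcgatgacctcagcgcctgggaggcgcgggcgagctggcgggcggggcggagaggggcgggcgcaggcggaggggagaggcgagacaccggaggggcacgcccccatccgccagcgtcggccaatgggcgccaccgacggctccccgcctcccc
The element was found before the start of 2 of the 18 immediate early genes with an entry (11.1%) and of 1.62% of all 27025 promoters. The CArG box was found for 1 of 18 (5.56%, against 1.40%) and the AP-1 motif TGANTCA for 0 of 18 (against 6.87%).

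Genes of stem cells were lower. Of 14 measured members, 11 were at least 2-fold lower and 0 higher, with a median log2 ratio of -2.07; Egr1 belongs to this list too. The transcription factor genes Meis1 (112 and 17.8 CPM, 6.29-fold lower, 3.54 to 12.2) and Hlf (130 and 21.9, 5.94-fold, 3.53 to 10.7) mark the least differentiated cells. Angpt1, a secreted ligand of the TIE2 receptor, was at 155 and 21.9 (7.07-fold lower, 4.22 to 12.7), whereas Cd34 was at 457 and 206 (2.22-fold lower, 1.84 to 2.68). All 4 genes were still detected with imatinib, at lower summed levels. Fewer cells of a type and less RNA per cell cannot be told apart from sums.

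Genes of the other early branches were lower too. Of 9 measured lymphoid-primed genes, 4 were lower and 0 higher (median -0.90). Dntt, the terminal transferase of antigen receptor joining, was at 180 and 9.56 CPM, 18.9-fold lower (8.98 to 47.5), and the receptor gene Flt3 at 183 and 26.0, 7.06-fold lower (4.40 to 12.0). All 5 measured megakaryocyte-primed genes were lower (median of 6 genes -1.96), among them Pf4, the platelet factor gene, at 83.0 and 13.7. The other gene in that median, the platelet gene Ppbp, went the opposite way at a log2 ratio of 4.61, under the level needed to count. Of 4 measured erythroid genes 3 were lower, with Gata1, the master factor of the lineage, at 77.3 CPM and 2 UMIs in all imatinib cells, a ratio of 28.3 to 1 (7.58 to 238). The other, Tfrc, the transferrin receptor that dividing cells of many kinds use, was 2.29-fold higher (1.52 to 3.49). Car1, a carbonic anhydrase, was lower at 149 and 49.2 but turned to a log2 ratio of 1.46 in cells of 1000 to 2000 UMIs. Outside these lists, Ctla2a, a cathepsin inhibitor gene, was at 821 and 45.1 CPM (18.2-fold lower), Hes1, a Notch target, had 141 and 2 UMIs, and Apoe was at 331 and 53.3.

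Genes downstream of cytokine receptors were lower as well. Among genes known as STAT5 targets 7 of 8 measured were lower and 0 higher (median -2.16). Pim1, a survival kinase gene, was at 905 and 184 CPM, 4.90-fold lower (4.09 to 5.92), and Mcl1, an anti-apoptotic BCL2 relative, at 471 and 139, 3.38-fold lower (2.73 to 4.23). Socs3, the feedback inhibitor, had 84 and 3 UMIs, a ratio of 19.6 to 1 (6.47 to 96.7). Of the TNF and NF-kB list 6 of 7 measured were lower (median -2.04), including the feedback gene Tnfaip3 at 92.6 and 15.03 CPM and the chemokine gene Ccl3 with 84 and 3 UMIs. Both measured ERK feedback genes were lower, Dusp6 at 107 and 24.6 and Spred1 at 61.1 and 24.6. Some genes stand in more than 1 of these lists, and Junb counts in the immediate early list as well. Among type I interferon genes 3 of 6 measured were lower (median -1.49), led by Rtp4 with 89 and 2 UMIs.

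Cell cycle genes divided by kind. The replication genes of S phase (20 measured, 1 higher, 0 lower, median 0.10) and those of G2 and mitosis (21 measured, 0 and 0, median 0.11) did not differ by 2-fold as groups; Pcna was at 139 and 228 CPM and Mki67 at 118 and 146. The 1 higher, Uhrf1, was under 2-fold with another thinning draw. By contrast 5 of 6 measured quiescence genes and CDK inhibitors were lower (median -1.16), with Cdkn1a, the p21 gene, at 97.3 and 20.5. Of the 5 D cyclins and partners Ccnd1 (64.9 and 12.3) and Ccnd2 (358 and 157) were lower, while Cdk4 and Cdk6 were within 2-fold. Mycn had 60 and 2 UMIs, and it was the 1 lower gene of the 16 in the translation and growth list.

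Mitochondrially encoded transcripts were lower, a measure on which the cells were filtered at 20% although no cell of 1000 or more UMIs was lost to it. Of 14 measured, 6 were at least 2-fold lower and 0 higher (median -0.72), and the median cell had 73 of 1000 UMIs untreated and 35 with imatinib. The ribosomal RNA gene mt-Rnr2 was at 4686 and 1376 CPM (3.41-fold lower, 3.18 to 3.65), and mt-Atp6, a subunit of ATP synthase, at 12561 and 4493 (2.80-fold, 2.69 to 2.91). Of the 22 nuclear genes of the same respiratory complexes, 3 were higher, 0 lower and 19 within 2-fold, with a median of 0.21. With another thinning draw 2 of those 3 were within 2-fold, Ndufs6 at a log2 ratio of 0.84 in place of 1.33 and Atp5g1 at 0.85 in place of 1.07, and without thinning they were at 0.99 and 0.78.

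Genes of protein production were described by several lists. Ribosomal protein genes took a median of 140 of 1000 UMIs untreated and 165 with imatinib, and 9 of 77 measured were higher, 1, Rpl7, lower and 67 within 2-fold (median 0.36). Rps18 (109 and 1037 CPM) and Rpl9 (38.2 and 362) led them at log2 ratios of 3.25 each, values that are uncertain because these genes have near-identical copies among which reads can be split. Endoplasmic reticulum chaperones, which fold secreted and granule proteins, were higher in 6 of 14 measured and lower in 1 (median 0.60). P4hb, a disulfide isomerase, was at 343 and 1425 CPM (4.16-fold higher, 3.69 to 4.70) and Hspa5, the BiP chaperone, at 855 and 1928 (2.25-fold, 2.07 to 2.45), while Pdia4 was at 137 and 45.1 (3.05-fold lower, 2.08 to 4.59). Proteasome (20 measured, 0 higher, 0 lower, median 0.06), glycolysis (10 measured, 0 and 0, 0.30) and cytosolic heat shock genes (10 measured, 1 and 0, -0.13) had no such difference. The 1 heat shock gene, Hspa1a, was at 105 and 265 CPM, shares most of its sequence with Hspa1b and was under 2-fold without thinning.

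The genes of the sort were checked next. Kit, on which cells were chosen, was at 416 and 693 CPM after thinning. A single Kit UMI is a larger share of a shallower cell, so these values are shaped by the rule. Over all cells of 1000 or more UMIs, before thinning and without the choice on Kit, it was at 136 and 170 per 1000000 UMIs. Ly6a, which encodes Sca1, was at 79.2 and 42.3 CPM, seen in 73 and 30 cells. The Sca1 gene of the gate was thus sparse in both libraries. Of the kinases that imatinib binds, Abl1 was at 112 and 68.3 CPM (1.63-fold lower, 1.16 to 2.32), Abl2 at 36.3 and 28.7, Csf1r at 36.3 and 39.6 and Pdgfrb at 25.8 and 13.7. Pdgfra had no UMI in either library, which allows up to 2.86 CPM untreated and 4.10 with imatinib, and Ddr1 and Ddr2 had 0 and 1 UMI each.

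**Figure D3:**
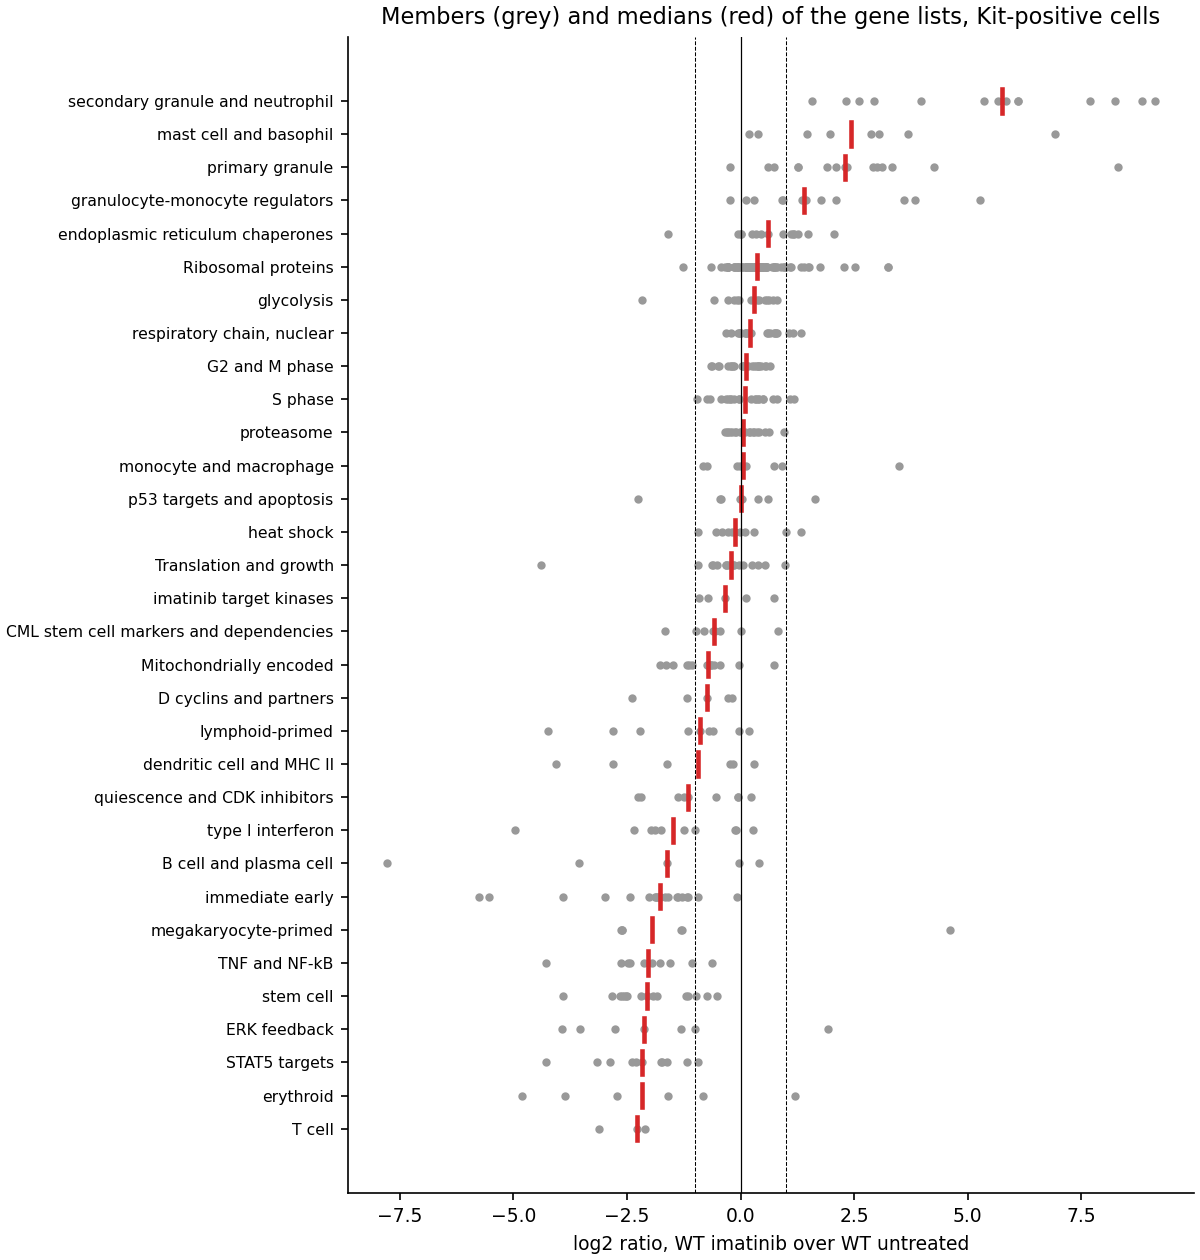
Log2 ratio of imatinib over untreated (x axis) for each list member with at least 20 CPM in either library (grey) and the list median (red), lists ordered by median, with dashed lines at 2-fold. Medians run from 5.75 for secondary granule and neutrophil genes to -2.29 for the 3 T cell genes shown, and cell cycle, proteasome and glycolysis lists lie near 0.

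Genes of cells that the gate should remove were found in both libraries. The B and plasma cell list summed to 3677 CPM untreated and 1351 with imatinib. Of the B and plasma cell list 3 of 5 measured were lower (median -1.62). Igkc, an antibody light chain gene, was at 2500.0 and 813 CPM; 50% of its UMIs came from 4 untreated cells and 1 imatinib cell, and its log2 ratio turned to 0.06 when Kit of 2 or more UMIs was required. Igha had 317 UMIs untreated, 50% of them in 2 cells, and 1 UMI with imatinib. Immunoglobulin genes share sequence, so their split is uncertain. No T cell gene was measured, the list summing to 110 and 20.5 CPM, and stroma genes summed to 6.68 and 21.9. Of 4 measured dendritic and MHC II genes 2 were lower, Flt3 and Tcf4. The part of these cells in the folds was tested only by leaving the richest out: without the 23 and 103 cells named above, 241 genes were higher and 378 lower.

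The untreated and imatinib cells differed in how many carried granule enzyme transcripts. The sum of Mpo, Elane, Prtn3 and Ctsg reached 10 or more of 1000 UMIs in 139 untreated cells, 13.3% (11.3 to 15.5%), and in 628 imatinib cells, 85.8% (83.1 to 88.2%). At the other end, 627 untreated (59.8%, 56.8 to 62.8%) and 28 imatinib cells (3.83%, 2.56 to 5.48%) had 1 or fewer. Between lay 282 (26.9%) and 76 (10.4%). Before thinning, a share of 1% or more of a cell's UMIs was held by 13.1% and 86.6% of the cells. These are ranges of a sum and not cell types. Cells that should lack the enzymes gave the background: in 65 untreated Kit-zero cells with 3 or more UMIs of T cell genes the median was 0 and the highest 1 (median 1534 UMIs before thinning), and in 103 with 20 or more of plasma cell genes the median was 0 and 3 reached 10 (median 4913 UMIs). In the imatinib library such cells were few. The 1 Kit-zero cell with 3 or more T cell UMIs had 54 granule UMIs. In 4 Kit-zero and 2 Kit-positive plasma-gene cells the highest value was 1. Kit-zero cells with mast cell and basophil genes are given apart, since they were not shown to lack the enzymes. Their median was 5 in 72 imatinib cells, of which 15 reached 10. In 8 untreated cells it was 1, and 0 reached 10.

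The comparison was then repeated among cells with 10 or more granule UMIs, where both libraries held granule-making cells, though with a median of 8529 UMIs before thinning untreated against 2888.5 with imatinib. The range has no upper limit, and the median sum of the 4 genes within it was 17 UMIs untreated and 27 with imatinib. Folds in this range are therefore not folds at an equal granule level. With 1 floor of 360 CPM for both libraries, 448 genes were measured, 36 of them higher (8.04%) and 24 lower (5.36%). Of 54 genes higher in all Kit-positive cells and measured here, 26 were again at least 2-fold higher, and of 21 lower 14 were again lower. Of the 75, 0 were opposite. The cells of this range are part of all Kit-positive cells, so these recurrences are partly built in and are not independent support. With the floor of 50 CPM and 50 UMIs, used for the list counts in this range, 2276 genes were measured, 232 higher (10.2%) and 24 lower (1.05%), 11.2% in all. The range held 139000 UMIs untreated and 628000 with imatinib, so 50 UMIs stood at 360 CPM untreated but at a lower level with imatinib. Lower genes were thus harder to call than higher ones, and these 2 shares cannot be set against each other. The 4 genes that set the range are not read. S100a8 had 7 and 911 UMIs, 28.8-fold higher, and S100a9 0 and 587, at least 43.3-fold. The median log2 ratio of the neutrophil list was 2.67 here, and that of the 11 other primary granule genes 0.47, against 2.29 for the whole list in all cells.

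For immediate early genes the libraries lay closer in this range than over all Kit-positive cells, a difference between cell sets that was not tested. The same was seen among cells with 1 or fewer granule UMIs (627 untreated and 28 imatinib), where the list held 11115 and 4357 CPM with a median of -0.999 in which 3 genes are set to the floor, and 11 of 20 measured were lower and 0 higher. Of 2376 genes measured there 24.2% were lower and 0.547% higher, 24.7% in all, and 50 CPM is under 2 UMIs in the imatinib cells. A call also needed 50 UMIs in the higher library, out of 627000 UMIs untreated and 28000 with imatinib. Higher genes were thus harder to call than lower ones, and Rps18, 5.82-fold higher, was not called. The counts of higher and lower genes in this range, immediate early genes included, cannot be set against each other. In the range of 10 or more the immediate early genes held 3676 CPM untreated and 2331 with imatinib, with a median log2 ratio of -0.39, where all Kit-positive cells had 9323 and 2451. The range holds 628 of the 732 imatinib cells but 139 of the 1048 untreated cells, so its imatinib value is close to that of all imatinib cells by construction. Of 9 measured immediate early genes 2 were lower and 0 higher here. Among the 19 with 20 CPM or more, 13 had a log2 ratio below 0 and 6 above. Fos had a log2 ratio of -0.08 (-0.61 to 0.48) and Junb 0.26 (-0.57 to 1.20). Zfp36 had -1.27 (-1.66 to -0.86), against -2.44 (-2.67 to -2.23) over all Kit-positive cells. Rgs1, under the level needed to count at 7 and 5 UMIs, had -2.66 (-4.66 to -0.79). STAT5 targets had a median of -1.56, with Pim1 at 554 and 140.1 CPM (3.95-fold lower). TNF and NF-kB genes had -1.19, with Nfkbia 2.63-fold lower, and mitochondrially encoded genes -0.93, with 6 of 13 measured lower and 0 higher. ER chaperones had a median of -0.46, against 0.60 over all Kit-positive cells. Irf8, within 2-fold before, was at 374 and 124.2 CPM (log2 -1.59, -2.12 to -1.06), and the monocyte gene Ms4a6c at 374 and 103.5 (-1.85, -2.40 to -1.30). Ly6c2 was 3.46-fold higher. Doublets were not called here, and the untreated cells of this range were deeper than the other untreated cells, at medians of 8529 against 3894 in the lowest range; the part of doublets was not tested within the range.

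**Figure D4:**
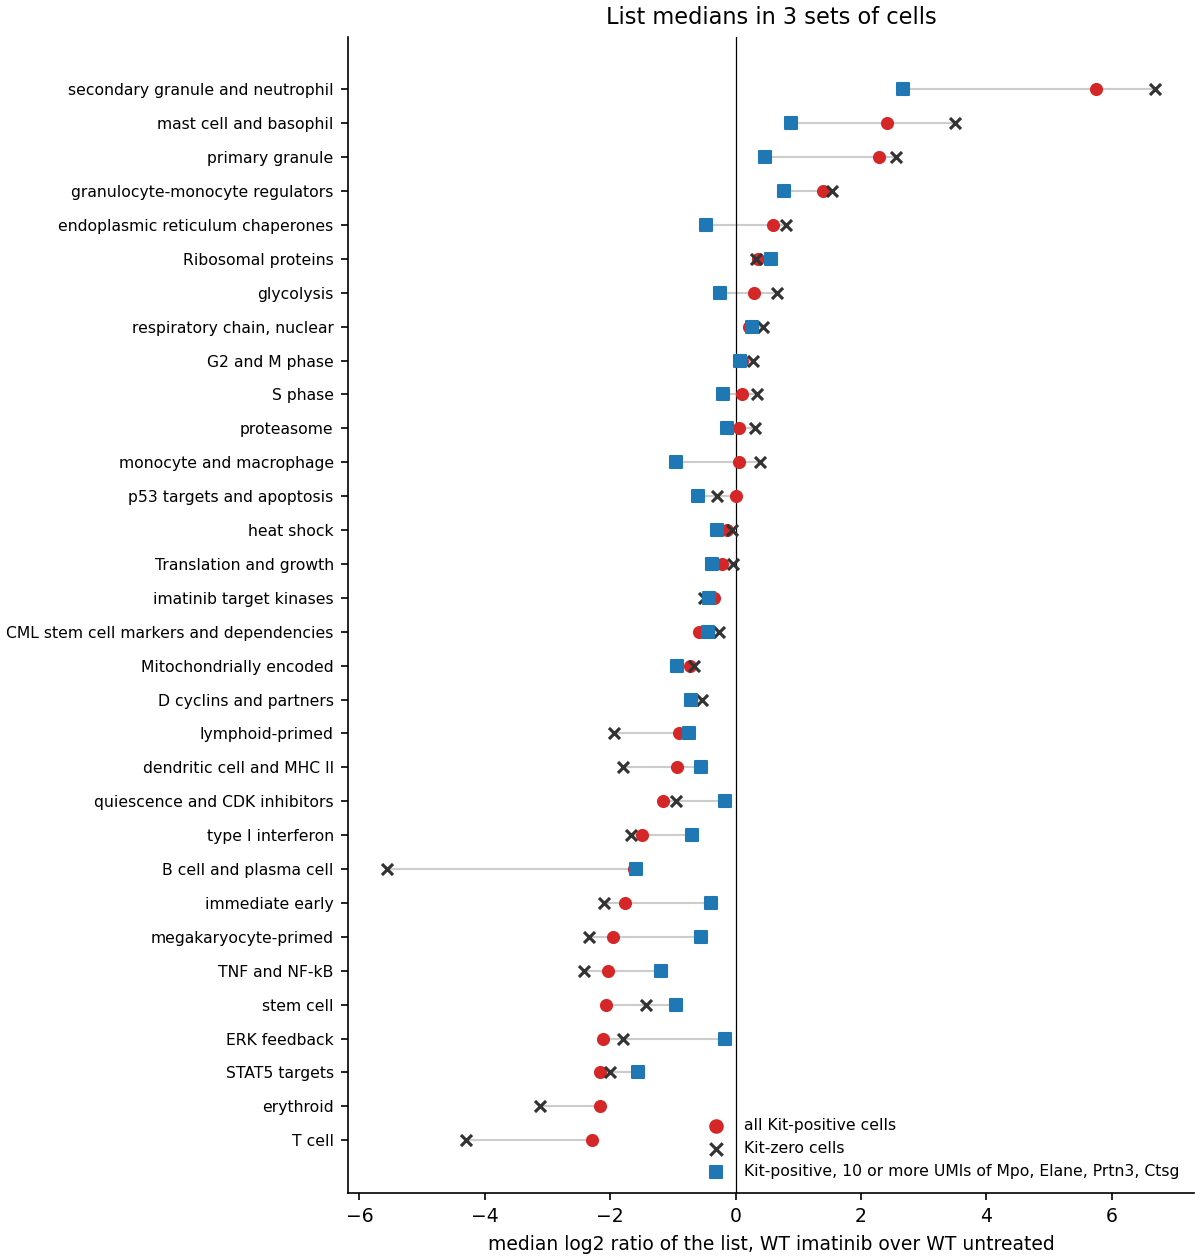
Median log2 ratio of each list (x axis) in all Kit-positive cells (red circles), in Kit-positive cells with 10 or more granule UMIs per 1000 (blue squares) and in Kit-zero cells (black crosses). For immediate early genes the circle and cross lie at -1.77 and -2.10 and the square at -0.39; for mitochondrially encoded genes the 3 marks lie between -0.66 and -0.93.

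Cells of the same libraries with 1000 or more UMIs but no Kit UMI, 1985 untreated and 2137 imatinib, were compared in the same way. Before thinning they were shallower than the Kit-positive cells, at medians of 3272 against 4577.5 UMIs untreated and 1970 against 2720 with imatinib. Of 4164 genes measured there, 390 (9.37%) were higher and 327 (7.85%) lower, 17.2% in all. Of the genes called in Kit-positive cells and measured in Kit-zero cells, 242 of 299 higher and 221 of 328 lower genes were called the same way and 0 the opposite way. Both comparisons share their libraries, so neither is independent support for the other. Primary granule genes had medians of 2.29 in Kit-positive and 2.56 in Kit-zero cells, stem cell genes -2.07 and -1.43, and STAT5 targets -2.16 and -2.01. The values differed most for antibody genes: Ighm was at 353 and 346 CPM in Kit-positive cells, a log2 ratio of -0.03, but at 1358 and 241 in Kit-zero cells, -2.49. Igkc had -1.62 and -4.57. The Ighm value of Kit-positive cells may rest on few cells. Sums of the lymphoid-primed list, which includes Ighm, were 95 and 117 of 1000 UMIs in the top imatinib cells and 7 or fewer in all others. The top untreated cells had 62 and 111. For Prss34 the bound was 6.93 in Kit-positive and 9.55 in Kit-zero cells, and these differences between the cell sets were not tested.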

How the data were processed

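Gene tables of the 2 WT libraries were used. The deposited values are a signal that the authors scaled to near-equal column sums. Dividing each column of it by its smallest nonzero value gave whole UMIs for 100% of values (tolerance 0.02). Partek 8.0, Bowtie 1.1.1 and GRCm38 (mm10) are named, without roles, by the submitters' processing notes. Because headers hold 1 name more than there are value columns, column position identified the cells. The 1780 selected cells were each thinned to 1000 UMIs, summed per gene and scaled to CPM. Genes with 0 UMIs were set to a floor of 3. Intervals and floors cover counting error only, no doublet caller was run and no test was possible. The ratio code was tested on simulated data.

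The members and the 34 gene lists were chosen with earlier results of these data known. Named genes were the 15 highest and 15 lowest by log2 ratio (ranked with 10 CPM added) among genes at least 2-fold apart with 100 CPM or more, the 8 highest and 8 lowest by CPM difference, up to 4 members of each list with the largest absolute log2 ratio, and Kit, Ly6a and the target kinases; Gm, Rik, ribosomal protein and mitochondrial genes were left out of both rankings. Hlf, Cd34, Fos, Jun, Junb, Spi1, Cebpa, Irf8, Cpa3, Calr, Igfbp4, Lyz2, Tfrc, Pim1, Mcl1, Nfkbia, Spred1, Pcna, Mki67, Ighm, Hspa5 and Rpl7 were added after their values were seen. List medians cover members with at least 20 CPM. Of 32265 gene names 94.4% matched GENCODE vM21. There were 17 alternatives, 13 of them planned and 4 chosen after seeing the data. Python 3.11.15, numpy 2.4.6, scipy 1.17.1, pandas 2.3.3 and edgeR 4.0.16 (for TMM scaling only) were used.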

Additional observations from a re-analysis of the deposited data

How the results depend on the processing

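Across 17 alternatives no gene that was at least 2-fold higher or lower turned to the opposite call. Against 302 higher and 366 lower genes, the counts moved by over 1.5 times with a floor of 20 CPM and 20 UMIs (610 and 782), a floor of 100 (161 and 177), Kit of 2 or more UMIs (145 and 187) and cells of 1000 to 2000 UMIs only (129 and 36, from 102 untreated and 232 imatinib cells); with Kit required after thinning 176 were lower, and 211 higher. In the 1000 to 2000 UMI cells 78.2% of called genes were higher, against 45.2%. The floors change how many genes are measured (7073 and 1946, against 3925), and the last 3 settings use fewer cells. With cells of 2000 or more UMIs thinned to 2000 the counts were 397 and 402, without thinning 320 and 305, with TMM scaling 293 and 382, with a total free of ribosomal, mitochondrial and haemoglobin genes 293 and 404, and without the deepest 5% of cells 298 and 387. Another thinning draw gave 297 and 393, and 505 of the 668 calls were the same. Without cells whose name occurs in both files the counts were 277 and 270, or 260 and 270 with headers read from the second name. Reversed values were Car1 in cells of 1000 to 2000 UMIs (1.46), Igkc (0.15) and the B cell and plasma cell list (0.15) with Kit required after thinning, and Igkc with Kit of 2 or more UMIs (0.062); the cause was not tested. Of 84 called genes among the 154 named by rule, 14 were under 2-fold in at least 1 alternative. The genes added after their values were seen are not in this count. Depth limits genes under 50 CPM, and a count of 0 allows up to 2.86 untreated and 4.10 CPM with imatinib. No paired analysis was possible because each group has 1 library.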

Other observations

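Several genes outside the granule lists differed by large factors in the Kit-positive cells. Clec4a2, a C-type lectin receptor of myeloid cells, had 3 UMIs in untreated and 96 in imatinib cells, a ratio of 45.8 (15.2 to 226). C3, the central complement protein, was at 7.63 CPM (UMIs per 1000000) untreated and 179, 23.4-fold higher with imatinib, and was seen in 8 untreated and 113 imatinib cells. Cldn15, a claudin, was at 3.82 and 138, but its log2 ratio of 5.18 rests on 4 untreated UMIs and was 2.93 with another thinning draw, 3.31 without thinning and 1.69 in cells of 1000 to 2000 UMIs. Tmsb4x, the actin-binding thymosin beta-4, was at 2186 and 5944 CPM, 2.72-fold higher, whereas its relative Tmsb10 was at 241 and 36.9, 6.55-fold lower. Among common genes, B2m, the light chain of MHC class I, was at 5791 and 3370.2 CPM and the actin genes Actb at 3765 and 2426 and Actg1 at 2305 and 1141, of which Actg1 alone passed 2-fold.

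Other named genes were lower with imatinib. F2r, the thrombin receptor, was at 168 and 16.4 CPM, 10.2-fold lower. Klf10, a factor induced by TGF-beta, was at 135 and 12.3, 11.02-fold lower, and Tsc22d1, another such gene, at 308 and 39.6, 7.78-fold lower. Of markers and dependencies described for chronic myeloid leukaemia stem cells, 4 of the 14 found in the files were measured and 0 were 2-fold apart (median log2 ratio -0.59). Under the level needed to count were Dpp4 at 47.7 and 15.03 CPM and Il1rap at 12.4 and 21.9.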
